A study of Mus musculus with 9 samples.

Results

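Homologous recombination copies a broken DNA end from the sister chromatid and therefore acts mainly in cells that are copying or have copied their genome. The break is resected to single strands, the BRCA proteins load a strand-exchange recombinase on them, helicases and nucleases take the joined molecules apart, and the Fanconi proteins feed crosslinked DNA into the same route. T cells that have met antigen divide fast, so stalled forks and breaks arise while they copy their DNA. The transcripts of 38 genes of this route were followed in activated CD8 T cells of 3 clones that recognise 1 parasite peptide. The 38 genes were found by symbol among 24060 genes with a deposited TPM value, a transcript level scaled for transcript length and for the library total. All 38 exceeded the filter of a TPM above 1 in at least 1 library, which 11330 genes passed.

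R7-I, R7-II and R7-III cells came from transnuclear BALB/c mice, each line cloned from the nucleus of a single CD8 T cell specific for the ROP7 protein of Toxoplasma gondii, so each group is 1 T cell receptor clone. No receptor was placed under a transgenic promoter, and the lines kept Rag2. Splenocytes of each line were held overnight with ROP7 peptide (10 µM) and mouse IL-2 (10 ng/ml), and the CD3+ CD8+ H-2Ld-Rop7+ fraction was taken by sorting, at a stated purity of 90 to 95%. Per the labels, affinity for the peptide runs R7-I, R7-III, R7-II from the highest to the lowest, and self-reactivity runs R7-III, R7-I, R7-II. Each clone has 3 libraries, named biological replicates 1 to 3. The labels do not say whether these came from separate mice, so the p-values measure the spread between libraries.

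TPM keeps no read depth, so no counting error could be given for a library. Libraries of 1 clone were alike across genes, with r between 0.992 and 0.997. The defining T cell genes were present, with 8 CD8 T cell markers summing to 2206 to 2229 TPM in R7-I, 3111 to 3145 in R7-II and 2395 to 2464 in R7-III. Most genes read higher in R7-II, where the median change of all genes tested, on the log2 scale, was 0.17 relative to R7-I and 0.12 relative to R7-III. From R7-I to R7-III this median was 0.04. Of all genes called, 72.4%, 66.4% and 82.8% were higher in these comparisons, and 46.2%, 47.0% and 56.6% once libraries were rescaled by their median ratio. Changes below are differences on log2(TPM + 1) from limma, with p-values adjusted by Benjamini-Hochberg for all genes tested, called at an adjusted p under 0.01. They understate the change of low genes. The 3 comparisons share libraries and are not independent of each other. In bulk RNA, fewer cells expressing a gene and less RNA of it per cell cannot be told apart.

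The 38 listed transcripts, chosen with earlier results of these data known, were as a sum lowest in R7-II, intermediate in R7-I and highest in R7-III. Their summed level was 566 to 585 TPM in the R7-II libraries, 675 to 705 in R7-I and 834 to 886 in R7-III, with no overlap between clones. Between R7-II and R7-I, 20 of the 38 genes fell, against 15.5% of all genes, and 5 rose, against 40.6%. After rescaling by the median ratio 27 fell there, against 29.4% of all genes, and 1 rose, against 25.2%. Between R7-II and R7-III, 28 fell, against 18.0% of all genes, and 1 rose, against 35.6%. After rescaling 28 fell, against 28.2%, and the rise, that of Fancc, was not called. Between R7-III and R7-I, 17 rose, against 6.96% of all genes, and 0 fell, against 1.45%. At an unadjusted limma p under 0.05, still 0 of them fell in R7-III against R7-I, against 8.51% of all genes, and 28 rose, against 23.8%. Their median log2 fold changes were -0.29, -0.61 and 0.29 in the same order, and -0.46, -0.74 and 0.24 after rescaling, which brought the medians of all genes to about 0.

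**Figure D1:**
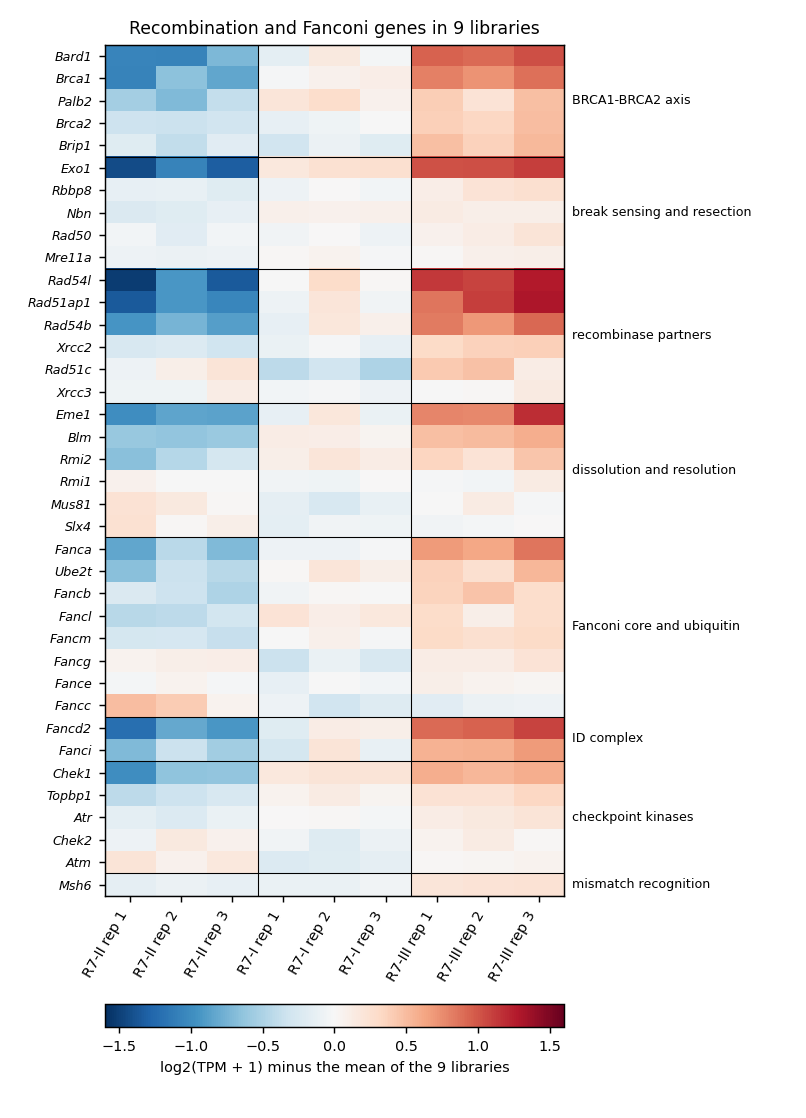
Level of each of the 38 genes (rows, grouped by role) in each of the 9 libraries (columns), as log2(TPM + 1) minus the gene's mean over the 9 libraries. The strongest gradient from blue in R7-II to red in R7-III is in Exo1, Rad54l, Rad51ap1 and Fancd2, and rows such as Rmi1 and Xrcc3 stay pale throughout.

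The graded order was a property of single genes and not only of the sum. In 22 of the 38 genes (57.9%), all 3 R7-II libraries lay below all R7-I libraries and these below all R7-III libraries, an order that 5.80% of all genes tested showed. After rescaling by the median ratio, 23 genes showed it, against 6.42% of all genes. By the tests, 11 genes both fell in R7-II against each of the other clones and rose in R7-III against R7-I. These were Brca1, Bard1, Exo1, Rad51ap1, Rad54l, Rad54b, Blm, Eme1, Fanca, Fancd2 and Fanci. Another 9 fell in R7-II against both clones without a call between R7-III and R7-I, namely Palb2, Nbn, Rmi2, Fancb, Fancl, Fancm, Ube2t, Topbp1 and Chek1. Brca2, Brip1, Xrcc2 and Msh6 were called only in the comparisons that involve R7-III, and Mre11a, Rad50, Rbbp8 and Atr only between R7-II and R7-III. These patterns are those of the deposited scale and changed with the scaling. Brca2, Xrcc2, Msh6, Mre11a, Rad50, Rbbp8 and Atr were also called lower in R7-II against R7-I after rescaling by the median ratio. Brip1 joined them after quantile normalization. The rise of Fanci in R7-III against R7-I was not called after either scaling, and those of Brca2, Rad51c and Fancg were not called after quantile normalization. The share of all genes with each of these call patterns was not counted, and being called in 1 comparison and not in another was not itself tested.

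The BRCA1-BRCA2 axis brings the recombinase to resected DNA. All 5 of its genes fell in R7-II against R7-III, beside 18.0% of all genes. Of these 5, 3 also fell against R7-I, beside 15.5% of all genes, and 4 rose in R7-III against R7-I, beside 6.96%. Brca1, the ubiquitin ligase and scaffold that steers a break towards recombination, lies at chr11:101488761-101551955 (mm10, as all positions here). It read 2.44, 3.57 and 3.03 TPM in the R7-II libraries, 6.11, 6.53 and 6.76 in R7-I, and 11.55, 10.79 and 12.25 in R7-III. The clones did not overlap, and the mean in R7-III was 3.83 times that in R7-II. The log2 fold change was -1.65 (SE 0.103, limma adjusted p = 3.82e-07) for R7-II against R7-III and -0.90 (adjusted p = 2.39e-05) against R7-I. Bard1, the obligate partner of Brca1, followed the same order from a lower level, at 0.89, 0.88 and 1.39 TPM in R7-II, 2.53, 3.39 and 2.87 in R7-I and 6.59, 6.41 and 7.08 in R7-III. Its mean was 6.35 times as high in R7-III as in R7-II, with a log2 fold change of -1.91 (SE 0.122, limma adjusted p = 4.23e-07).

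Brca2, which loads the recombinase, differed less. It read 3.17, 3.11 and 3.22 TPM in R7-II, 3.77, 3.98 and 4.20 in R7-I and 5.78, 5.55 and 6.34 in R7-III. The libraries of the clones were separate, but on the deposited scale only the comparisons with R7-III passed the test, with log2 fold changes of -0.72 for R7-II against R7-III (limma adjusted p = 1.97e-05) and 0.47 for R7-III against R7-I (adjusted p = 0.00288). The second of these was no longer called without R7-I replicate 1 or 2 or R7-III replicate 1 or 3, at log2 fold changes of 0.42 to 0.48 and limma adjusted p of 0.0125 to 0.0174. Brip1, a helicase that binds Brca1, did not separate R7-II from R7-I, with means of 2.08 ± 0.248 and 2.21 ± 0.225 TPM (SD, n = 3). It was higher in R7-III at 4.05 ± 0.257 TPM, a call against R7-I that was lost without R7-I replicate 1 or R7-III replicate 1 or 3 at a limma adjusted p of at most 0.0106. Palb2, the bridge between Brca1 and Brca2, set R7-II apart instead, at 6.60 ± 0.860 TPM against 11.5 ± 0.919 in R7-I and 13.2 ± 1.26 in R7-III.

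Of the genes that sense and resect the break, the nuclease of long-range resection moved most. Exo1 read 1.71, 2.48 and 1.92 TPM in R7-II, 7.23, 7.69 and 7.73 in R7-I and 13.84, 13.89 and 14.67 in R7-III. Its log2 fold change was -2.32 (SE 0.0933, limma adjusted p = 5.65e-08) against R7-III, where the mean was 6.94 times as high, and -1.50 (adjusted p = 3.82e-07) against R7-I. No other of the 38 genes had a larger fall of R7-II against R7-I. By contrast, the 3 subunits of the MRN complex, which binds the end and recruits the Atm kinase, moved little. Mre11a, Rad50 and Nbn had log2 fold changes of -0.15, -0.22 and -0.29 for R7-II against R7-III. The Mre11a call was lost without R7-I replicate 1, any R7-II library, or R7-III replicate 2 or 3 (limma adjusted p of 0.0107 to 0.0264), and the Rad50 call without R7-II replicate 2 or R7-III replicate 2 or 3 (0.0137 to 0.0213). Rbbp8, the cofactor that starts resection, fell by 0.34 on the log2 scale in R7-II against R7-III (adjusted p = 4.08e-04) and averaged 14.8, 16.0 and 18.9 TPM in R7-II, R7-I and R7-III.

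Among the partners of the recombinase, the SWI/SNF-type motors and a DNA-binding cofactor were among the genes with the largest changes. Rad54l, a motor that remodels the joined strands, read 2.96, 4.98 and 3.49 TPM in R7-II, 10.39, 12.97 and 10.57 in R7-I and 23.99, 23.04 and 26.51 in R7-III. Its log2 fold change of -2.43 (SE 0.139, limma adjusted p = 2.35e-07) for R7-II against R7-III was the largest among the 38 genes in that comparison. Rad51ap1, which stimulates strand pairing, read 4.00, 5.62 and 5.15 TPM in R7-II, 10.97, 13.46 and 11.19 in R7-I and 21.99, 26.24 and 29.95 in R7-III. It rose by a log2 fold change of 1.07 (SE 0.130, limma adjusted p = 4.61e-04) in R7-III against R7-I, ahead of Rad54l at 1.06, and fell by 1.12 on the log2 scale in R7-II against R7-I (adjusted p = 2.61e-05). Rad54b, a relative of Rad54l, read 1.57, 1.95 and 1.69 TPM in R7-II, 3.53, 4.60 and 4.25 in R7-I and 7.85, 6.99 and 8.35 in R7-III, and its mean was 4.45 times as high in R7-III as in R7-II. In the annotation 39.2% of its exon bases are shared with Fsbp on its own strand and Gm11832, so its level is uncertain.

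Of the recombinase paralogs, which stabilise the filament, Xrcc2 showed the graded order and Rad51c and Xrcc3 did not. Rad51c read 1.71, 2.07 and 2.30 TPM in R7-II, 1.14, 1.32 and 1.03 in R7-I and 2.82, 2.95 and 2.12 in R7-III. It was lowest in R7-I, and the R7-II and R7-III libraries overlapped. It rose in R7-II against R7-I (log2 fold change 0.48, limma adjusted p = 0.00597) and in R7-III against R7-I (0.74, adjusted p = 0.00283). The first call was lost without R7-I replicate 1 or 3 or R7-II replicate 2 or 3 (limma adjusted p of 0.0149 to 0.0234), and after rescaling by the median ratio. The second was lost without R7-I replicate 1 or 3 or R7-III replicate 1 or 2 (0.0127 to 0.0166). Xrcc2 averaged 8.17 ± 0.301 TPM in R7-II, 9.39 ± 0.410 in R7-I and 13.1 ± 0.385 in R7-III (SD, n = 3), and on the deposited scale passed the test only for R7-III against each other clone. Xrcc3 averaged 13.8, 13.4 and 14.4 TPM in R7-II, R7-I and R7-III and passed none.

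**Figure D2:**
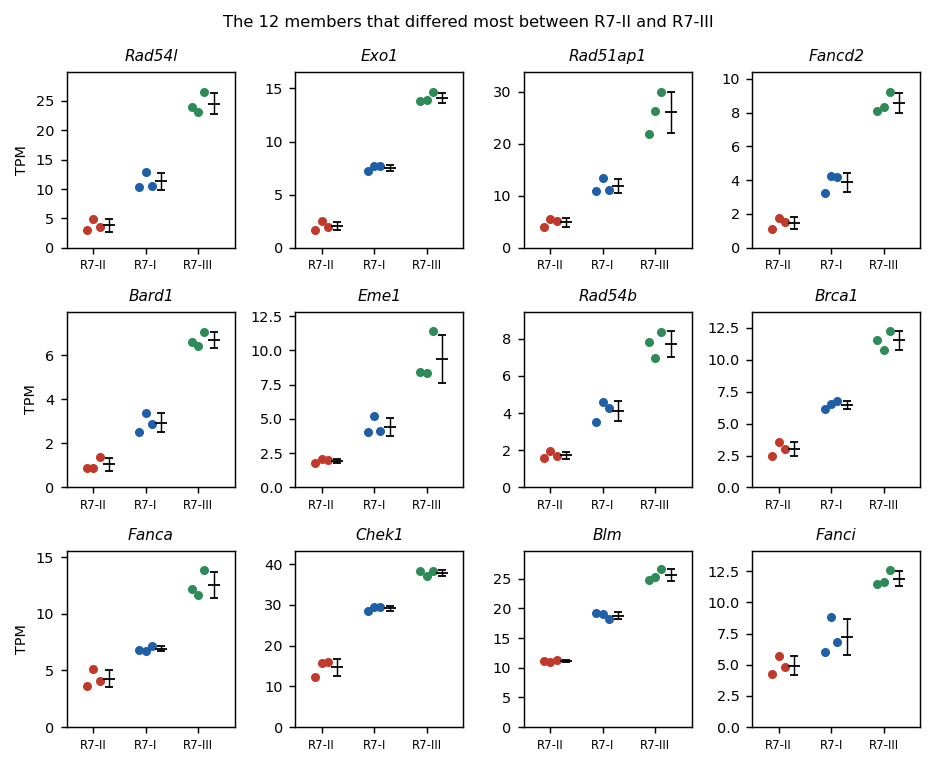
TPM in each library (points) for the 12 genes with the largest log2 fold change between R7-II and R7-III among those called; the black bar is the mean and SD of the 3 libraries of a clone, and each axis starts at 0. In all 12 the 3 R7-II libraries lie below the R7-I libraries, which lie below the R7-III libraries.

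Of the 6 genes that take joined molecules apart, 3 fell in R7-II against each other clone. Of all genes, 15.5% fell against R7-I and 18.0% against R7-III. Blm, the helicase that dissolves double junctions, read 11.20, 10.92 and 11.23 TPM in R7-II, 19.21, 18.99 and 18.13 in R7-I and 24.79, 25.33 and 26.64 in R7-III. The libraries of each clone were close together, and the log2 fold change of -1.13 against R7-III had an SE of 0.0501 (limma adjusted p = 7.11e-08). Its accessory subunits went separate ways, with Rmi2 at 12.8 ± 1.81 TPM in R7-II, 19.8 ± 0.733 in R7-I and 23.0 ± 1.81 in R7-III, and Rmi1 at 18.9 ± 0.602, 18.0 ± 0.543 and 18.9 ± 1.30 TPM. Rmi2 fell in R7-II against both clones and Rmi1 passed no test.

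Mus81 and Eme1 form 1 nuclease that cuts joined molecules, and their transcripts moved in opposite directions in R7-II against R7-I, although the rise of Mus81 was not called after rescaling. Eme1 read 1.75, 2.04 and 2.02 TPM in R7-II, 4.01, 5.20 and 4.09 in R7-I and 8.43, 8.33 and 11.40 in R7-III, with log2 fold changes of -0.88 against R7-I (SE 0.127, limma adjusted p = 1.24e-04) and -1.81 against R7-III (adjusted p = 8.03e-07). Mus81 read 26.62, 25.18 and 22.76 TPM in R7-II, 20.40, 18.74 and 20.77 in R7-I and 22.53, 24.75 and 22.23 in R7-III. It rose in R7-II against R7-I by a log2 fold change of 0.30 (SE 0.0686, limma adjusted p = 0.00268), a call lost without R7-I replicate 2 or R7-II replicate 1 (0.0134 and 0.0108) and after median-ratio rescaling, where the log2 fold change was 0.12 (adjusted p = 0.135). Of the exon bases of Eme1, 12.1% are shared with Lrrc59 and Mrpl27 on the other strand, which reads without strand cannot separate. Slx4, the scaffold that docks such nucleases, averaged 23.5, 20.1 and 21.1 TPM in R7-II, R7-I and R7-III, with a limma adjusted p of 0.0101 for R7-II against R7-I.

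Fancd2 and Fanci form the clamp that the Fanconi core complex ubiquitinates at a crosslink. Fancd2 read 1.10, 1.75 and 1.54 TPM in R7-II, 3.23, 4.24 and 4.17 in R7-I and 8.11, 8.35 and 9.23 in R7-III. Its mean was 5.85 times as high in R7-III as in R7-II, with a log2 fold change of -1.96 (SE 0.123, limma adjusted p = 3.82e-07), and it rose in R7-III against R7-I by 0.98 (adjusted p = 5.44e-04). Fanci, its partner, was less far apart, at 4.24, 5.72 and 4.80 TPM in R7-II, 6.04, 8.80 and 6.85 in R7-I and 11.50, 11.61 and 12.64 in R7-III. The log2 fold change of Fanci was -1.13 against R7-III (SE 0.125, limma adjusted p = 2.04e-05) and -0.47 against R7-I (adjusted p = 0.00669). The call against R7-I was lost in 7 of the 9 fits that left out 1 library, all but those without R7-I replicate 1 or R7-II replicate 2, at a limma adjusted p of at most 0.0273. That of R7-III against R7-I (log2 fold change 0.66) was lost in 5, those without R7-I replicate 1 or 3 or any R7-III library, at 0.0172 to 0.0235. It was also lost after rescaling by the median ratio (limma adjusted p = 0.0104) and after quantile normalization (0.0216). Both Fanci calls were lost with no filter and with no trend, and that against R7-I in R7-II also with only the clones compared. Polg on the other strand shares 13.4% of the exon bases of Fanci.

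In the Fanconi core and its ubiquitin enzymes, 5 of 8 genes fell in R7-II against each other clone and 2 rose in R7-III against R7-I. Of all genes, 15.5% fell in R7-II against R7-I, 18.0% fell against R7-III, and 6.96% rose in R7-III against R7-I. Fanca, a large core subunit, read 3.63, 5.13 and 4.06 TPM in R7-II, 6.81, 6.76 and 7.15 in R7-I and 12.18, 11.66 and 13.86 in R7-III. Its log2 fold change was -1.37 (SE 0.105, limma adjusted p = 1.43e-06) against R7-III and -0.59 (adjusted p = 5.00e-04) against R7-I. The ubiquitin ligase subunit Fancl and the conjugating enzyme Ube2t, which together modify the clamp, averaged 19.8 ± 1.23 and 9.17 ± 1.12 TPM in R7-II, 29.5 ± 1.21 and 14.2 ± 0.920 in R7-I, and 30.7 ± 2.42 and 17.5 ± 1.77 in R7-III (SD, n = 3). Fancm, the translocase that anchors the core to DNA, fell by 0.33 on the log2 scale in R7-II against R7-I (limma adjusted p = 9.72e-04), and Fancb, another core subunit, by 0.34 (adjusted p = 0.00658). The Fancb call was lost without any single R7-I library, R7-II replicate 2 or 3, or R7-III replicate 1 (limma adjusted p of 0.0107 to 0.0254). Vrk2 on the other strand shares 17.0% of the exon bases of Fancl.

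The core subunits Fancc and Fancg rose in R7-II relative to R7-I, calls that were lost after rescaling by the median ratio. Fancc read 12.14, 11.39 and 8.67 TPM in R7-II, 7.81, 6.55 and 7.07 in R7-I and 7.19, 7.75 and 7.80 in R7-III. It was higher in all R7-II libraries than elsewhere, with R7-I and R7-III overlapping, and rose in R7-II by log2 fold changes of 0.52 against R7-I (SE 0.111, limma adjusted p = 0.00177) and 0.44 against R7-III (adjusted p = 0.00491). The second call was lost without R7-II replicate 1 or 2 or any R7-III library (limma adjusted p of 0.0121 to 0.0208), and both after rescaling by the median ratio (0.0166 and 0.0255). Fancg read 13.98, 14.40 and 14.58 TPM in R7-II, 10.39, 12.42 and 11.09 in R7-I and 14.61, 14.70 and 15.74 in R7-III. It was lowest in R7-I, with log2 fold changes of 0.32 for R7-II against R7-I (limma adjusted p = 0.00171) and 0.38 for R7-III against R7-I (adjusted p = 0.00349). The first was not called after rescaling (log2 fold change 0.15), and the second not without R7-I replicate 1 or 3 or any R7-III library (0.0127 to 0.0179). Fance averaged 24.2, 23.1 and 25.2 TPM in R7-II, R7-I and R7-III and passed no test.

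The checkpoint kinases act in 2 arms. Atr senses single-stranded DNA at stalled forks and acts through Topbp1 and the kinase Chek1. Chek1 read 12.25, 15.84 and 15.95 TPM in R7-II, 28.51, 29.45 and 29.49 in R7-I and 38.45, 37.09 and 38.26 in R7-III, with log2 fold changes of -0.95 against R7-I (SE 0.0830, limma adjusted p = 3.62e-06) and -1.32 against R7-III (adjusted p = 3.96e-07). Topbp1, the activator of Atr, had the highest levels of the 38 genes, at 90.3 ± 5.16 TPM in R7-II, 120 ± 4.27 in R7-I and 137 ± 5.75 in R7-III (SD, n = 3), and fell in R7-II by 0.41 and 0.60 on the log2 scale against R7-I and R7-III. Atr itself moved less, at 18.77, 17.86 and 19.38 TPM in R7-II, 20.97, 21.28 and 20.55 in R7-I and 22.92, 23.41 and 24.45 in R7-III. On the deposited scale only its fall in R7-II against R7-III was called (log2 fold change -0.32, SE 0.0492, limma adjusted p = 1.97e-04).

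Atm answers double-strand breaks and acts through Chek2. It read 33.79, 30.56 and 32.84 TPM in R7-II, 24.96, 25.34 and 26.33 in R7-I and 29.51, 29.66 and 30.20 in R7-III. On the deposited scale every R7-II library was above every other library, and the log2 fold change against R7-I was 0.33 (SE 0.0473, limma adjusted p = 1.18e-04). That against R7-III was 0.12 and was not called (limma adjusted p = 0.0496). Its lowest value over the alternative fits was -0.04. Of the 5 genes that rose in R7-II against R7-I, Atm alone was also called after rescaling by the median ratio, and it was not after quantile normalization (log2 fold change 0.11, adjusted p = 0.0269). Chek2 averaged 5.07 ± 0.503, 4.40 ± 0.288 and 5.15 ± 0.237 TPM in R7-II, R7-I and R7-III and passed no test. Msh6, the mismatch recognition subunit listed with these genes, averaged 61.0 ± 0.981, 62.6 ± 1.07 and 77.4 ± 0.835 TPM and rose in R7-III against R7-I by a log2 fold change of 0.30 (SE 0.0316, limma adjusted p = 1.76e-04).

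**Figure D3:**
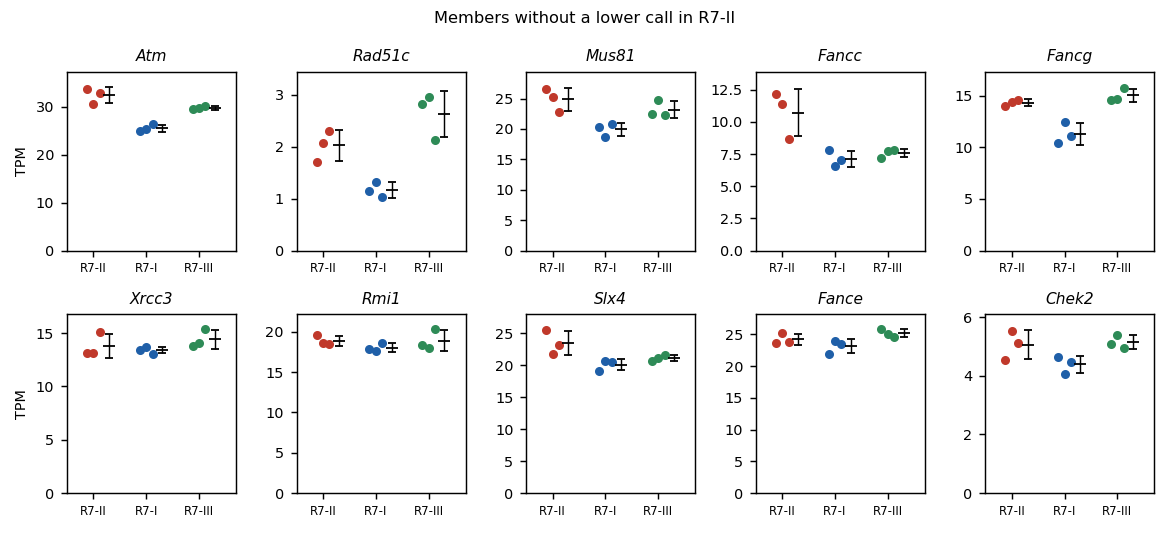
TPM in each library (points) for the 10 genes that were not called lower in R7-II in either comparison; the black bar is the mean and SD of the 3 libraries of a clone, and each axis starts at 0. On this scale Atm and Fancc are highest in R7-II and Rad51c and Fancg lowest in R7-I, but Atm was not called between R7-II and R7-III. The higher calls of Rad51c, Mus81, Fancc and Fancg in R7-II against R7-I were lost after rescaling by the median ratio.

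**Figure D4:**
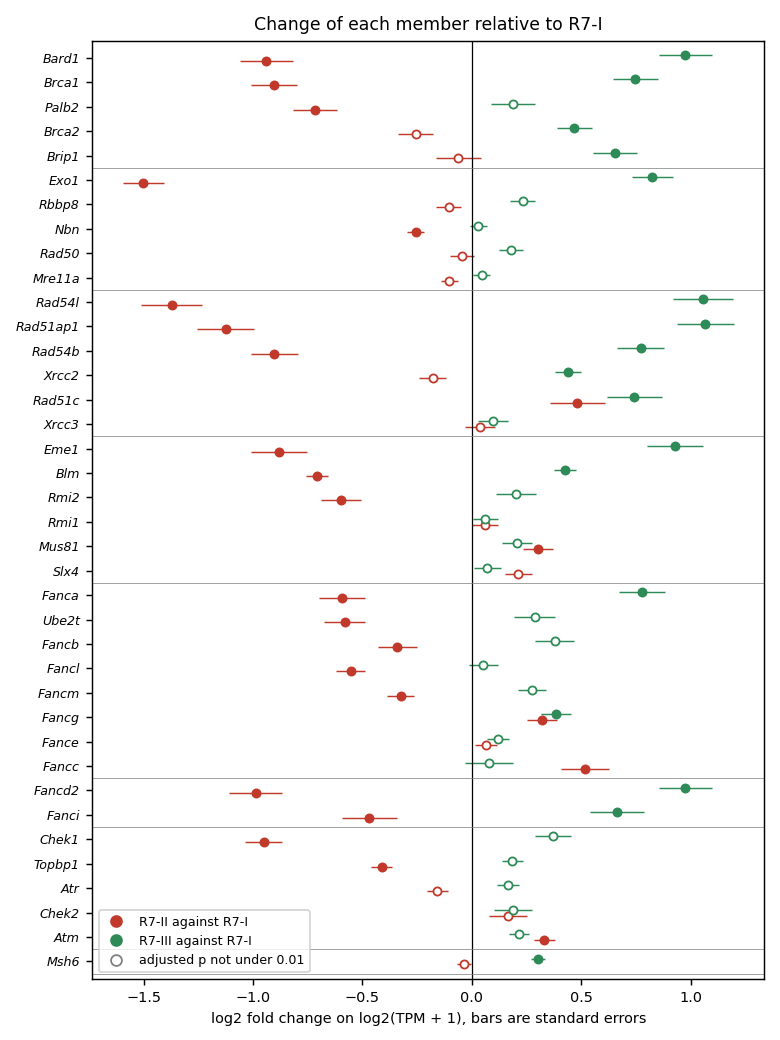
Log2 fold change on log2(TPM + 1) of each gene relative to R7-I, for R7-II (red) and R7-III (green), with bars for the standard error; filled points have a limma adjusted p under 0.01. In 28 of the 38 genes the red point lies below 0 and in none does the green, beside medians of all genes of 0.17 and 0.04. The share of all genes below 0 was not counted. The higher calls of Rad51c, Mus81, Fancc and Fancg in R7-II were lost after rescaling by the median ratio.

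The spread between libraries of a clone was a median of 4.41% of the mean in R7-I, 8.32% in R7-II and 5.45% in R7-III over the 38 genes. It was widest for Bard1 in R7-II, at 27.7%. Within a clone, many of the 38 genes were highest or lowest in the same library, a count that was not made over all genes. R7-I replicate 2 was the highest of its clone in 24 of the 38 genes, R7-III replicate 3 in 30, and R7-II replicate 1 was the lowest in 21.

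Other gene lists were read in the same fit to place these genes among repair and cell cycle genes. The lists were a description, with no test of a list, and their genes were counted on the deposited scale only. Of all genes, 15.5% fell and 40.6% rose in R7-II against R7-I, and 18.0% fell and 35.6% rose against R7-III. In R7-III against R7-I, 6.96% of all genes rose. Of 35 other recombination and Fanconi genes, 11 fell and 10 rose in R7-II against R7-I, 17 fell and 6 rose against R7-III, and 8 rose in R7-III against R7-I. Dna2, a second resection nuclease, averaged 2.14, 5.85 and 10.7 TPM in R7-II, R7-I and R7-III, with a log2 fold change of -1.90 against R7-III (limma adjusted p = 1.47e-07), and the junction nuclease Gen1 one of -1.21 (adjusted p = 1.94e-06). Among the genes that rose, Rad52 changed most against R7-III. It was higher in R7-II by log2 fold changes of 0.48 against R7-III (limma adjusted p = 1.18e-04) and 0.41 against R7-I (adjusted p = 3.51e-04). Of 10 checkpoint clamp and mediator genes, 6 fell and 2 rose in R7-II against R7-I, and 7 fell and 1 rose against R7-III. Clspn, which couples Atr to Chek1, fell by 2.46 on the log2 scale in the latter.

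Repair routes that need no sister chromatid were read the same way, as was a list of damage mediators, which is not such a route. The shares of all genes beside them were 15.5% lower and 40.6% higher in R7-II against R7-I, and 18.0% and 35.6% against R7-III. These counts are those of the deposited scale, where the median log2 fold changes of all genes were 0.17 and 0.12. They were not made after rescaling. Of 11 end joining genes, 2 fell and 0 rose in R7-II against R7-I, and 4 fell and 1 rose against R7-III. Polq, the polymerase of a backup form of end joining, fell by 1.17 on the log2 scale in R7-II against R7-III. Of 13 base excision genes, 3 fell and 4 rose against R7-I, and 3 fell and 2 rose against R7-III. Ung, the uracil glycosylase, fell by 1.14 on the log2 scale in the latter. Of 13 nucleotide excision genes, 1 fell and 6 rose against R7-I, and 3 fell and 5 rose against R7-III, with Ddb2, the ultraviolet damage sensor, higher by a log2 fold change of 1.17 in R7-II than in R7-I (limma adjusted p = 2.41e-06). Of 12 damage mediators, 2 fell and 4 rose against R7-I and 3 fell and 3 rose against R7-III, with H2afx, the histone marked at breaks, lower by a log2 fold change of -0.48 in the latter.

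Replication and mitosis genes followed the order of the summed level of the listed recombination genes. Of 22 replication genes, 20 fell and 0 rose in R7-II against R7-I, 21 fell and 0 rose against R7-III, and 18 rose in R7-III against R7-I, with medians of -0.58, -1.01 and 0.41. Their summed level was 2135 to 2396 TPM in R7-II, 3144 to 3332 in R7-I and 4095 to 4259 in R7-III. Of 18 mitosis genes, 12 fell in R7-II against R7-I and 15 against R7-III, 0 rose in either, and 11 rose in R7-III against R7-I, with medians of -0.63, -1.59 and 0.86. They summed to 55.9 to 65.2 TPM in R7-II, 121 to 139 in R7-I and 230 to 258 in R7-III. Rrm2, which makes deoxynucleotides, averaged 4.74, 19.4 and 49.1 TPM in R7-II, R7-I and R7-III, and the mitotic kinase Cdk1 averaged 2.09, 10.2 and 21.4 TPM. The share of the recombination gene differences that goes with a different number of cycling cells was not tested.

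**Figure D5:**
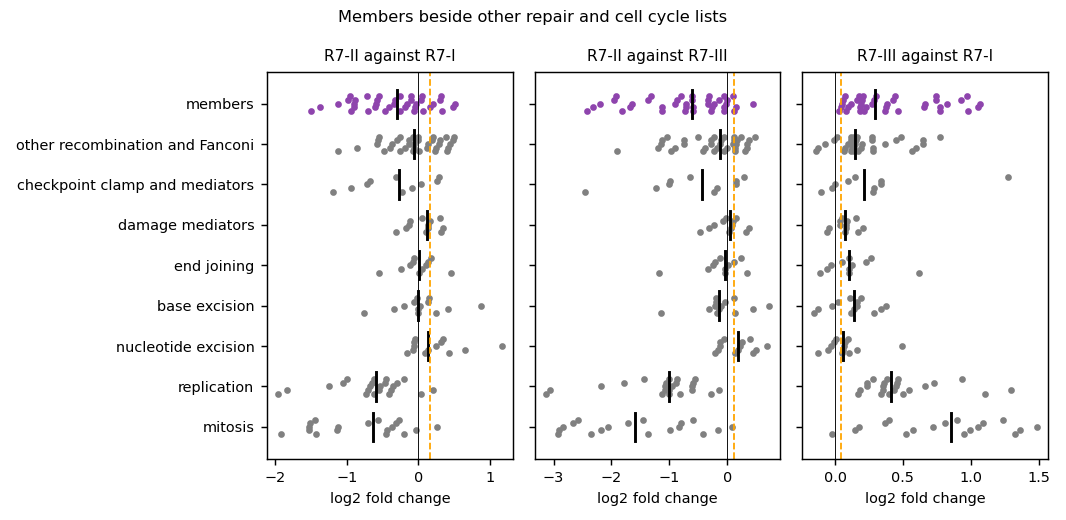
Log2 fold change of each gene (points) of the 38 recombination and Fanconi genes (purple) and of 8 other lists (grey) in the 3 comparisons, with the list median as a black bar and the median of all genes tested as a dashed line. The medians of the 38 genes are -0.29, -0.61 and 0.29, between those of the excision repair lists near 0 and those of mitosis at -0.63, -1.59 and 0.86.

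Markers of other cells also moved with R7-II, where 40.6% of all genes were called higher against R7-I and 35.6% against R7-III. Of 5 B cell markers tested, all 5 were higher in R7-II against each other clone, and the 6 listed summed to 30.4 to 63.2 TPM in R7-II, 7.19 to 13.5 in R7-I and 4.38 to 6.12 in R7-III. All 5 MHC class II genes were higher in R7-II than in either other clone, at sums of 101 to 168, 27.9 to 44.1 and 19.6 to 22.8 TPM. Of 7 myeloid markers, 4 were higher against R7-I and 5 against R7-III, at sums of 18.7 to 76.0, 1.05 to 1.54 and 1.93 to 3.27 TPM, with Cd14 at 0 in all R7-I libraries. The 3 CD4 T cell markers summed to 2.18 to 2.94, 0.72 to 1.35 and 1.16 to 1.34 TPM, the 4 erythroid markers to at most 1.74 TPM in any library and the 3 NK cell markers to at most 0.17, with Klra8 at 0 in all libraries. Of the 8 CD8 T cell markers, 7 were called higher in R7-II in each comparison and 6 in both, since Cd2 was not called against R7-I or Zap70 against R7-III. The part of these cells in the levels of the recombination genes was not tested.

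Many genes of the S phase carry an E2F element near their start, so the start regions of the 38 genes were searched for its 4 forms TTTCCCGC, TTTCGCGC, TTTGCCGC and TTTGGCGC on either strand, and for the cell cycle homology element TTTGAA, which none of these forms contains. RefSeq (GRCm38.p6, the build mm10) gave a window of 250 bases before to 50 after the start for 30 of the 38 genes. An E2F form was found in 8 of the 30 (26.7%), against 2.26% of 32851 windows and 2.60% of 27025 genes. TTTGAA was found in 2, Bard1 and Eme1 (6.67%), against 17.9% of windows and 20.2% of genes. The 8 genes include both strongly graded and flat members, which is why their sites are shown, each as 30 bases on the strand of the gene with the element in capitals.
Bard1, chr1:71103163-71103192, minus strand: ccgccgctcagTTTCCCGCtcaggaagttt
Brca2, chr5:150522442-150522471, plus strand: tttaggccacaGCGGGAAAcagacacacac
Topbp1, chr9:103305187-103305216, plus strand: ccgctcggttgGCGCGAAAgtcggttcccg
Fancg, chr4:43010335-43010364, minus strand: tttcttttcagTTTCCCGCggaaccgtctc
Chek2, chr5:110839820-110839849, plus strand: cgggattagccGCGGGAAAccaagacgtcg
Msh6, chr17:87975054-87975083, plus strand: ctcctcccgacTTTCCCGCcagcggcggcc
Rmi1, chr13:58402612-58402641, plus strand: ccccgagggagTTTGGCGCgattggaggag
Rad51c, downstream start, chr11:87404477-87404506, minus strand: gtttccagcgcTTTCGCGCctcttgctcta
Rad51c, upstream start, chr11:87404941-87404970, minus strand: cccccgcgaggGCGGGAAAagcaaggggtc

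The median log2 fold change between R7-II and R7-III was -0.30 in the 8 genes with a match and -0.72 in the 22 without, and 0.01 against -0.40 for R7-II against R7-I. Among the 8, the log2 fold changes between R7-II and R7-III started at -1.91 in Bard1, while Rmi1 averaged 18.9 TPM in both of these clones. Brca1 and Rad51ap1, both graded by clone, held no match to either element in the whole window searched. The longest stretches before their starts that lie outside annotated exons are given, of 193 and 216 bases. They are parts of the windows, so the printed letters alone do not show the absence.
Brca1, chr11:101551956-101552148, minus strand: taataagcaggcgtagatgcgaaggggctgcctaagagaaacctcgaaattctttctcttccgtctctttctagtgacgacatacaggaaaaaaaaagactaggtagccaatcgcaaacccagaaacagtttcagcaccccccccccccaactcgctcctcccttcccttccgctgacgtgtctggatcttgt
Rad51ap1, chr6:126939622-126939837, minus strand: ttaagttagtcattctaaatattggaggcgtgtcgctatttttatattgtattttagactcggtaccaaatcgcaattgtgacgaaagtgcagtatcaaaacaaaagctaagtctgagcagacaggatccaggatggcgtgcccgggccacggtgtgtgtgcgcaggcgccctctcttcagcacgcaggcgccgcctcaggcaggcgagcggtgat
A match is a description of the letters and not evidence that a factor binds there, and no match says only that these letters are not in this window.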

How the data were processed

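RNA of sorted, peptide-activated CD8 T cells of 3 clones was measured in 9 libraries. The authors sequenced polyA RNA as single-end reads without strand, and used RSEM 1.2.11 with RefSeq genes of mm10 for alignment and gene levels. They deposited 1 TPM value for each symbol and library. Their own tests ran DESeq2 1.8.1 on counts, which were not used here, so the deposited TPM values were tested on a log scale instead. The sort left live tetramer-binding cells, and 200 ng of RNA entered each library.

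Columns were matched to samples by name. log2(TPM + 1) was fitted with limma 3.58.1 in R 4.3.3 (lmFit, eBayes with trend) for genes with a maximum TPM above 1, all 9 libraries in 1 fit with clone as the only term, Benjamini-Hochberg adjustment and a threshold of 0.01. The fit was tested on simulated data. The members, the role groups and the other lists were chosen with earlier results of these data known. Values in every library are given for the 12 members with the largest change of R7-II against R7-III, the 6 with the largest of R7-III against R7-I, those called against the main direction, and Brca1, Brca2, Fancd2, Fanci, Atm, Atr and Chek1. Of other lists at most 3 genes were named, those with the largest change of R7-II against R7-III among those called. Rad52 was named as the largest rise in its list. Alternatives were another pseudocount, filter, scaling, a fit without trend, a replicate block, only the clones compared, a threshold of 0.05 and leaving out each library. Start regions and gene positions are from RefSeq (GRCm38.p6, the build mm10), and exon overlaps from the GENCODE M21 basic annotation, with 24 of the 38 members sharing no exon base. Sequences were handled in Python 3.11.15.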

Additional observations from a re-analysis of the deposited data

How the results depend on the processing

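Over 18 alternatives at an adjusted p of 0.01, 17 of 25 called genes between R7-II and R7-I, 25 of 29 between R7-II and R7-III and 11 of 17 between R7-III and R7-I were called in each. Bard1 is counted as lost in each comparison because it fell below the filter of at least 1 TPM in every library, which removes genes that fell. Higher calls depended most on the scaling. Of the 5 genes higher in R7-II against R7-I, 1 was called after median-of-ratios scaling and 0 after quantile normalization. The 1 gene higher in R7-II against R7-III, Fancc, gave 0 with no filter, with either scaling and with only the clones compared, 2 genes were called at an adjusted p of 0.05 (Atm was added), and 0 to 1 with single libraries left out. Median-of-ratios scaling took the median log2 fold change of the 38 genes from -0.29 to -0.46 in R7-II against R7-I, and from -0.61 to -0.74 against R7-III. Under quantile normalization Xrcc3 (log2 fold change -0.24, limma adjusted p = 0.00711) and Rmi1 (-0.20, adjusted p = 0.00695) turned to lower calls in R7-II against R7-I. Numbers of lower calls ranged from 18 to 30 (R7-II against R7-I, 20 as reported) and from 26 to 31 (against R7-III, 28). Higher calls in R7-III against R7-I ranged from 12 to 22 (17) at an adjusted p of 0.01, with 12 without R7-I replicate 1 or R7-III replicate 1. At an adjusted p of 0.05 they numbered 25. The causes were not tested.

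No effect shared by same-numbered libraries was seen, since their deviations from their clone means correlated between -0.045 and 0.089. The labels do not say whether such libraries were handled together, and these correlations cannot settle it. With the replicate number as a block, 19 genes were lower and 4 higher in R7-II against R7-I, 26 lower and 1 higher against R7-III, and 17 higher in R7-III against R7-I. Fancb, Rad51c, Mre11a and Rad50 each lost a call. Read depth is not held by TPM values, so low genes such as Rad51c carry an unknown counting error.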
